A study of Homo sapiens with 3 samples.

Results

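The 9 genes described here encode surface proteins of B cells at which antibodies, antibody-drug conjugates or engineered T cells have been aimed, or which serve to identify B-lineage leukemia: CD22, MS4A1 (the antigen CD20), CD72, CD38, MME (the antigen CD10), CD24, CD52, CD40 and TNFRSF13C (the BAFF receptor). They were chosen by name, and each was followed over all probe sets that the platform annotation assigns to that gene alone. This gave 25 of the 54675 probe sets on the array, for 9 of the 19752 genes with a probe set of their own. Expression was measured in human SupB15 cells, a BCR-ABL positive B-precursor acute lymphoblastic leukemia line labelled drug sensitive (1 array), and in its multidrug resistant derivative SupB15-MR (2 arrays, called replicates 1 and 2). SupB15-MR arose from the SupB15 cells that survived mitoxantrone in medium conditioned by the bone marrow stromal line HS-5 and were then kept without drug. Both kinds of cell were grown in normal medium for the arrays. The sample titles call the SupB15-MR arrays biological replicates, whereas the study describes the profiled SupB15-MR samples as clones. Its names for these clones differ between its figures. The label of replicate 2 names its cells SupB15-MR5, so that clone and array cannot be told apart.

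B-cell surface antigens fall into a few kinds of protein. CD22 and CD72 are inhibitory receptors whose cytoplasmic tyrosine motifs (ITIMs) recruit phosphatases that dampen the B-cell receptor, and MS4A1 encodes the membrane-spanning protein that rituximab binds. CD38 and MME are enzymes on the outside of the cell, CD24 and CD52 are short glycoproteins held by a glycosylphosphatidylinositol (GPI) anchor, and CD40 and the BAFF receptor belong to the tumor necrosis factor receptor superfamily and signal to NF-kappaB. B-precursor leukemia usually carries CD22, CD10, CD24 and CD38, while CD20 varies between cases, and the loss or thinning of a targeted antigen is a known route of escape from therapy. The arrays measured RNA only, not the protein on the cell surface, and in a bulk RNA sample fewer cells that carry an antigen and less RNA per cell cannot be told apart.

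Promoter sequences are shown for the genes on which the results turn. CD22 was higher and CD24 lower in both SupB15-MR arrays on every probe set, and CD72 and CD52 were higher in replicate 2 than in replicate 1. Each runs 5' to 3' on the strand of the gene, from 250 bases before the annotated start to 50 bases after it, in the RefSeq annotation of GRCh38.p14. The coordinates are chr19:35328937-35329236 (plus strand) for CD22, chr6:106975578-106975877 (minus strand) for CD24, chr9:35618364-35618663 (minus strand) for CD72 and chr1:26317708-26318007 (plus strand) for CD52. Capitals mark the purine-rich box GAGGAA, or its reverse complement, which factors of the ETS family such as PU.1 and SPIB can bind.
CD22: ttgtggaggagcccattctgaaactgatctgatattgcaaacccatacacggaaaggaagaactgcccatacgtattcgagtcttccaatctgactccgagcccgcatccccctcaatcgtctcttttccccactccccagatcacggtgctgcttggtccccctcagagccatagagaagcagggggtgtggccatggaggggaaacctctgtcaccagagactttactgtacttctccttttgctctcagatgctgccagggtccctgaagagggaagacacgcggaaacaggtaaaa
CD24: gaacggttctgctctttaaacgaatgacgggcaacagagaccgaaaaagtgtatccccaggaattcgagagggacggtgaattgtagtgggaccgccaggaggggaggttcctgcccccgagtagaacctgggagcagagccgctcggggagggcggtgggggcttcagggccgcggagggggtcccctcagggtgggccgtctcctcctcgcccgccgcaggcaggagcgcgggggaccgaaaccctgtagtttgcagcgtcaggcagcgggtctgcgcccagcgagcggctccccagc
CD72: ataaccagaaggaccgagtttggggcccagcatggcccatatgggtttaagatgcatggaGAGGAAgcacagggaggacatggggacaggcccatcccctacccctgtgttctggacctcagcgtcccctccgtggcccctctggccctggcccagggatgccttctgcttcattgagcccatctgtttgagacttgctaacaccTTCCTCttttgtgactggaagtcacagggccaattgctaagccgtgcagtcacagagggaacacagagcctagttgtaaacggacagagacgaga
CD52: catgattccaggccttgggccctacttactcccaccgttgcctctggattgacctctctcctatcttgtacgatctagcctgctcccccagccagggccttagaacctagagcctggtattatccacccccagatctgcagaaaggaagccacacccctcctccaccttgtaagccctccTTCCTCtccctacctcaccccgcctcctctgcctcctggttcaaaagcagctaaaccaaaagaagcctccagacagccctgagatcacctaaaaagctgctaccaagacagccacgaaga

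The RefSeq promoter table matched 6 of the 9 genes, with 11 entries, and did not match MS4A1, CD40 and TNFRSF13C. The entry shown for CD24 is 1 of its 3. Of 5 motifs searched on both strands, none of which contains another, the CD72 promoter held 2 GAGGAA boxes and the CD52 promoter 1, whereas 27.9% of all 35116 promoter entries held at least 1. The CD22 promoter and the CD24 entry shown held none of GAGGAA, the octamer ATGCAAAT, the palindrome CCCNNGGG of early B-cell factor, the E-box CAGGTG and the TATA box TATAAA. Among all entries the octamer occurred in 1.77%, CCCNNGGG in 19.1%, CAGGTG in 20.6% and TATAAA in 11.5%. Of the other entries, the third of CD24 held 1 CCCNNGGG and 1 CAGGTG, that of CD38 1 CAGGTG, 2 overlapping entries of MME the same CAGGTG and another of MME 1 CCCNNGGG. A match of these letters is a description of the sequence and no evidence that a factor binds there.

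All values are log2 expression values after RMA, so that a difference of 1 is a 2-fold difference. Differences from SupB15 were taken within a probe set. Levels of different probe sets were compared for the filter on low values, the choice of a probe set per gene and the cell markers below. The SupB15 array stood apart from the SupB15-MR arrays over all probe sets (Spearman correlation 0.84 with each, against 0.99 between the SupB15-MR arrays). It also differed in its control probe sets. The value of the ACTB probe set at the 3' end minus that at the 5' end, a measure of how far the labelled RNA extends, was 0.80 in SupB15, 2.59 in replicate 1 and 2.43 in replicate 2. The same measure for GAPDH was 0.10, -0.09 and -0.11, a small difference in the opposite direction. The median of the hybridization spikes, added in equal amounts by design, was 8.91, 12.18 and 11.53 in the same order. The median of the 18S rRNA probe sets was 6.49, 13.97 and 13.92. The part of these differences in the results below was not tested. The array medians were 5.08, 5.27 and 5.28, so that centring the arrays lowers each difference below by 0.19. The B-cell receptor genes CD79A (10.34, 10.27 and 10.27) and CD79B (9.50, 9.44 and 9.40) were at like values on their probe sets of highest mean, while their other probe sets differed, with differences down to -1.02 for CD79A and up to 1.61 for CD79B. PTPRC, which encodes the leukocyte antigen CD45, had 3.69 in SupB15 against 11.21 and 10.95, and 3 of its 5 probe sets were 2-fold or more higher in each SupB15-MR array. Of 8 B-lineage markers, all above the array median in SupB15, the surrogate light chain genes VPREB1 (10.49 against 4.22 and 3.94) and IGLL1 (12.65 against 10.32 and 10.34) fell and 6 were not called. Among the 6, the recombinase gene RAG1 had a difference of 2.03, which did not pass, and DNTT one of 0.20, with identical SupB15-MR values. EBF1 (12.32 against 11.07 and 10.57) was 2-fold or more lower in each SupB15-MR array without passing. PAX5 (10.63 against 9.78 and 9.90) was lower by less than 2-fold. The probe sets of DNTT (-0.387 to 4.561), EBF1 (-2.927 to 1.945) and PAX5 (-0.787 to 1.804) disagreed in direction. Genes that mark other cells lay mostly below the median of each array: above it in SupB15, replicate 1 and replicate 2 were 2, 0 and 0 of 7 T-cell markers, 2, 1 and 1 of 6 myeloid markers, 2, 0 and 1 of 3 erythroid markers and 3, 2 and 2 of 7 markers of marrow stroma. On a log2 scale the summed level ran from 7.03 to 7.43 for the T-cell markers, from 7.71 to 8.58 for the myeloid, from 6.21 to 6.65 for the erythroid and from 8.01 to 9.06 for the stromal markers. Of 5 plasma cell markers, with a median of -2.09, PRDM1 fell by 3.40, with identical SupB15-MR values. XBP1 (-2.95), IRF4 (-2.09) and TNFRSF17 (-1.41) were 2-fold or more lower in each SupB15-MR array without passing, and SDC1 (2.28) was higher. Over their probe sets PRDM1 ran from -3.49 to -0.48, XBP1 from -2.95 to 0.25 and IRF4 from -2.09 to 0.05. The summed level of the 5 markers was 12.46, 9.62 and 10.15. The erythroid factor gene KLF1 had 4.14 and the collagen gene COL1A2 3.79 in all 3 arrays, while differences over the COL1A2 probe sets ran from -1.23 to 0.14. Other markers were not flat. The stromal marker THY1 had 8.14, 5.15 and 4.69, and the myeloid marker MPO 6.18, 8.20 and 7.30, and neither was called. The myeloid marker CSF1R went the other way than MPO (6.47, 4.38 and 3.97), also without a call. Called were the T-cell marker CD3E, lower (5.13, 2.81 and 2.90), and the myeloid marker LYZ, higher (3.07, 4.29 and 4.27). The differences over the LYZ probe sets ran from 0 to 1.21. By size alone, 2 myeloid markers were higher (14.5% of all genes) and 1 lower (15.1%), and 0 stromal markers were higher and 1 lower.

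Across the 25 probe sets, 9 were higher in both SupB15-MR arrays than in SupB15, 12 were lower in both, and for 4 the SupB15 value lay between the SupB15-MR values. The last was the case for 1.68% of all 46034 probe sets that passed the filter on low values, as all 25 antigen probe sets did, and 3 of the 4 were probe sets of MS4A1. By size alone, with no test, 4 antigen probe sets were 2-fold or more above SupB15 in each SupB15-MR array (18.3% of all probe sets), and 7 were 2-fold or more below it in each (15% of all), 6 of them probe sets of CD24. With limma (threshold 0.05 on the adjusted p, and 2-fold) 3 were called higher (13.1% of all) and 3 lower (9.71% of all). With each array centred on its median, the share of higher calls among all calls went from 57.4% to 45.8%, and 4 antigen probe sets were called higher (14.2% of all probe sets) and 6 lower (16.9% of all). With each gene taken by its probe set of highest mean, MME and CD40 were called higher (10.6% of the 17526 genes tested) and CD24 lower (9.81%). The same 3 genes were those 2-fold or more from SupB15 in each SupB15-MR array, against 14.5% of all genes higher and 15.1% lower. The median log2 difference over the 9 genes was 0.04, and over all genes tested it was 0. Calls among the antigens thus lay in both directions, and counts of 2 and 1 among 9 genes are too few to set apart from these shares.

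**Figure D1:**
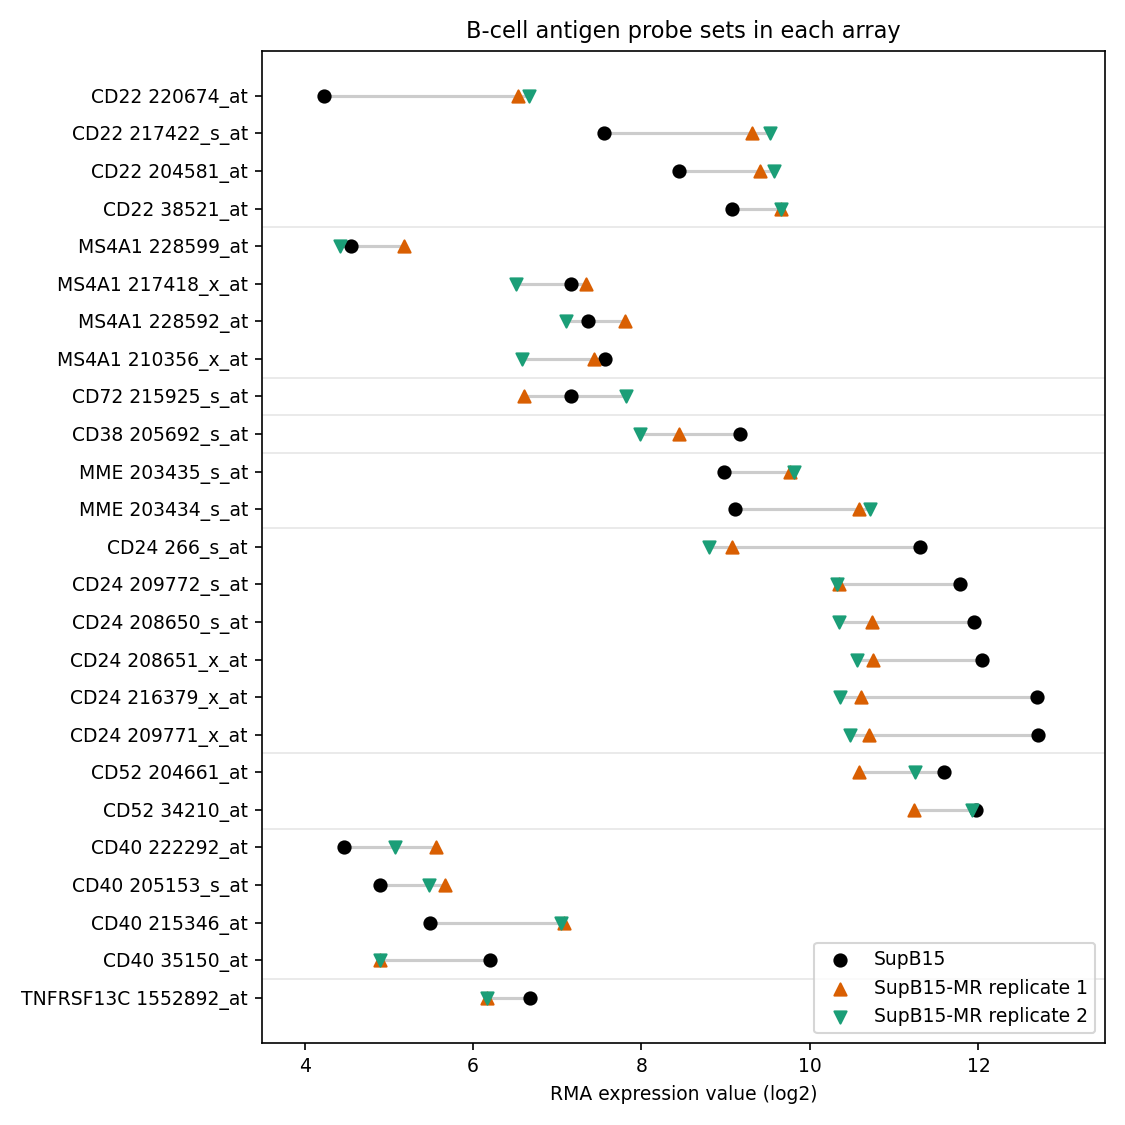
RMA expression values (log2) of the 25 probe sets of the 9 antigen genes, 1 row per probe set, in the SupB15 array (circles) and in SupB15-MR replicates 1 and 2 (triangles pointing up and down), with a grey line over the range. All 4 CD22 rows have SupB15 on the left of both SupB15-MR arrays, all 6 CD24 rows have it on the right, and the CD40 rows go both ways.

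The spread in these tests came from the SupB15-MR arrays alone, with 1 residual degree of freedom, since SupB15 had 1 array. An exact permutation test of 1 array against 2 has only 3 splits and cannot pass any usual threshold. An ordinary ANOVA called no probe set on the array, although 5 of the 22 antigen probe sets it could test had an unadjusted p under 0.05, against 14 of 25 with limma. Every adjusted p below is from limma, adjusted over all 46034 probe sets, and rests on how limma shares the spread between probe sets.

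CD22, the sialic acid-binding lectin that inotuzumab ozogamicin targets, was higher in both SupB15-MR arrays on each of its 4 probe sets, by 0.58 to 2.37 on the log2 scale. Probe set 220674_at had 4.23 in SupB15, 6.54 in replicate 1 and 6.67 in replicate 2. It rose by 2.37 on the log2 scale (SE 0.10, adjusted p = 0.0252 from limma), and 74 other probe sets had its value in replicate 2. Probe set 217422_s_at, at 7.55, 9.32 and 9.53, had a difference of 1.87 that missed the threshold (adjusted p = 0.0522 from limma), although it was 3.41-fold and 3.94-fold higher in the SupB15-MR arrays. Probe set 204581_at, at 8.45, 9.40 and 9.57, had a difference of 1.04 (adjusted p = 0.0748 from limma). SupB15 lay between the SupB15-MR values on none of the CD22 probe sets, but it did so on only 1.68% of all probe sets. The lack of overlap is therefore not particular to CD22. Probe set 38521_at, the one of highest mean, had 9.08 in SupB15 and exactly 9.66 in both SupB15-MR arrays. Its difference of 0.58 was the smallest of the 4, and under 2-fold, so that CD22 was not among the genes called although 1 of its probe sets was. The median over the probe sets was 1.46.

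CD72, the other ITIM receptor and a lectin-like partner of the semaphorin SEMA4D, had 7.17 in SupB15, 6.60 in replicate 1 and 7.82 in replicate 2 on its only probe set. The SupB15 value lay between those of the SupB15-MR arrays, which were 2.32-fold apart. The mean difference was 0.04 (SE 0.92, adjusted p = 1 from limma), so that no difference between SupB15 and SupB15-MR could be seen at this spread.

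MS4A1, the gene of CD20, had 4 probe sets and no call. Probe set 228592_at had 7.37 in SupB15, 7.81 in replicate 1 and 7.10 in replicate 2, and its difference of 0.09 (SE 0.54, adjusted p = 0.995 from limma) was far under the spread. Probe set 228599_at had 4.55, 5.18 and 4.43, and probe set 217418_x_at had 7.16, 7.34 and 6.51. SupB15 lay between the SupB15-MR arrays on these 3 probe sets. On 210356_x_at, at 7.57, 7.44 and 6.58, it was above both (difference -0.56, adjusted p = 0.621 from limma). The direction of MS4A1 against SupB15 thus hung on the probe set and on centring (-0.10 for 228592_at with centred arrays). All 4 probe sets had in common that replicate 2 was below replicate 1. Values shared with other probe sets occurred on 228599_at (201 others in replicate 1), 217418_x_at (67 in replicate 2) and 228592_at (20 in replicate 2).

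CD38, an enzyme that cleaves NAD and the target of daratumumab, had 9.17 in SupB15, 8.44 in replicate 1 and 7.98 in replicate 2 on its only probe set. Both SupB15-MR arrays were lower, by 1.65-fold and 2.27-fold. The difference of -0.95 (SE 0.35) did not pass the test (adjusted p = 0.226 from limma).

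MME, the membrane metallopeptidase known as CD10 or the common acute lymphoblastic leukemia antigen, was higher in both SupB15-MR arrays on both of its probe sets. Probe set 203434_s_at had 9.11 in SupB15, 10.58 in replicate 1 and 10.71 in replicate 2. It rose by 1.54 on the log2 scale, 2.91-fold (SE 0.10, adjusted p = 0.0409 from limma). Probe set 203435_s_at, at 8.98, 9.76 and 9.81, differed by 0.81 (adjusted p = 0.0272 from limma), which was under 2-fold. The SupB15-MR arrays lay within 0.14 of each other on both.

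CD24, a heavily glycosylated GPI-anchored protein of immature B cells and a ligand of SIGLEC10, lay 2-fold or more below SupB15 in each SupB15-MR array on all 6 of its probe sets, with mean differences of 2.62-fold to 5.17-fold. Probe set 209772_s_at had 11.78 in SupB15, 10.34 in replicate 1 and 10.32 in replicate 2. It fell by 1.45 on the log2 scale (adjusted p = 0.00562 from limma). Probe set 209771_x_at, the one of highest mean, had 12.71, 10.70 and 10.47. It fell by 2.13 (SE 0.17, adjusted p = 0.04997 from limma), and this call was lost without the filter on low values (adjusted p = 0.056) and with a stricter filter (adjusted p = 0.0511). The largest difference, -2.37, was that of 266_s_at, at 11.31, 9.08 and 8.80 (adjusted p = 0.0541 from limma). Probe set 216379_x_at, at 12.70, 10.61 and 10.36, had -2.21 (adjusted p = 0.0518 from limma). These 3 probe sets had differences of over 2, with both SupB15-MR arrays far below SupB15. The remaining probe sets, 208651_x_at (12.04, 10.75 and 10.56) and 208650_s_at (11.95, 10.74 and 10.35), had -1.39 and -1.40 and did not pass the test. CD24 has near-identical pseudogene copies in the genome, so that its probe sets may not report this gene alone and do not count as 6 independent measurements.

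CD52, a very short GPI-anchored glycopeptide and the target of alemtuzumab, had 11.59 in SupB15, 10.58 in replicate 1 and 11.25 in replicate 2 on 204661_at. On 34210_at it had 11.97, 11.23 and 11.92. Both probe sets were lower in both SupB15-MR arrays, but replicate 2 was close to SupB15 on the second, by 0.04 on the log2 scale. Neither difference passed the test (-0.67, adjusted p = 0.459, and -0.39, adjusted p = 0.677, from limma).

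CD40, the receptor through which T cells stimulate B cells, had 4 probe sets that disagreed. Probe set 215346_at, the one of highest mean, had 5.49 in SupB15, 7.08 in replicate 1 and 7.04 in replicate 2, and rose by 1.58 (SE 0.03, adjusted p = 0.0122 from limma). Probe sets 222292_at (4.46, 5.56 and 5.07) and 205153_s_at (4.90, 5.67 and 5.48) were also higher in both SupB15-MR arrays, by 0.85 and 0.68, and did not pass the test. Probe set 35150_at ran the other way, from 6.20 in SupB15 to exactly 4.90 in both SupB15-MR arrays, and was called lower by limma (log2 difference -1.30, adjusted p = 0.000645). Values shared with other probe sets of the same array occurred on all 4 probe sets. The value of 35150_at was shared with 119 others in replicate 1 and 219 in replicate 2, that of 215346_at with 62 and 25, and in SupB15 that of 222292_at with 117 and that of 205153_s_at with 92. The cause was not tested. No direction was therefore settled for CD40. TNFRSF13C, the receptor for the B-cell survival factor BAFF, had 6.67 in SupB15 and 6.16 in both SupB15-MR arrays on its only probe set. Its difference of -0.51 was under 2-fold, and its small adjusted p (0.000719 from limma) rested on identical values in the SupB15-MR arrays, which 131 and 111 other probe sets shared.

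**Figure D2:**
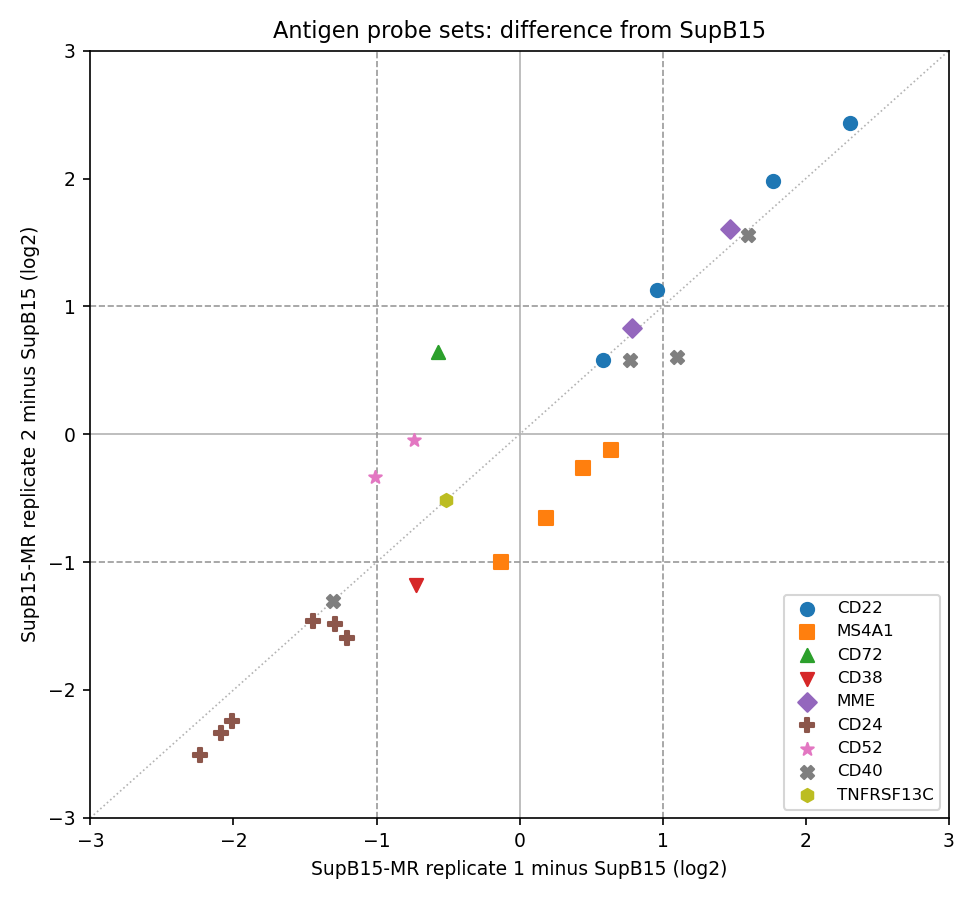
Difference from SupB15 (log2) of the 25 antigen probe sets, in SupB15-MR replicate 1 (horizontal axis) and replicate 2 (vertical axis). Each symbol is a probe set, dashed lines mark a 2-fold difference and the dotted line equal differences. CD24 lies in the lower left corner and CD22 and MME in the upper right, on either side of the dotted line by little. MS4A1 lies below that line, and CD72 and CD52 lie above it.

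The SupB15-MR arrays differed from each other on some antigens. At least 1.5-fold apart were 7 of the 25 probe sets (28%), against 3.39% of all probe sets. The 2 shares are not a like comparison. On 39.7% of all probe sets replicates 1 and 2 did not differ at all, which was so for only 3 of the 25. The share of genes was not computed, and the count at 1.5-fold was added after the data were seen. They were the 4 of MS4A1, both of CD52 and that of CD72. Replicate 2 minus replicate 1 was -0.71 to -0.86 for the MS4A1 probe sets, 0.68 and 0.69 for those of CD52 and 1.21 for that of CD72. The array of the cells labelled SupB15-MR5 thus had lower MS4A1 values and higher CD52 and CD72 values, on every probe set of these genes. Of the MS4A1 probe sets, however, only 210356_x_at had no SupB15-MR value shared with other probe sets of the same array. The MS4A1 differences exceeded those of 98.2% to 99.1% of all probe sets, those of CD52 97.8% to 98.0%, and that of CD72 99.8%. Only CD72 was over 2-fold apart. The other antigens were under 1.5-fold apart, with CD24 at -0.39 to -0.02, CD22 at 0 to 0.21 and MME at 0.05 and 0.14. Those differences still exceeded those of up to 90.9% of all probe sets for CD24, 77.4% for CD22 and 67.0% for MME, since the median absolute difference over all probe sets was 0.05. With 1 array of each, these differences between SupB15-MR samples have no test. Probe sets of 1 gene share the RNA and often the sequence they detect, and are no replicates of the cells. The hybridization spikes also differed between these arrays (12.18 in replicate 1 and 11.53 in replicate 2), and their part was not tested.

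**Figure D3:**
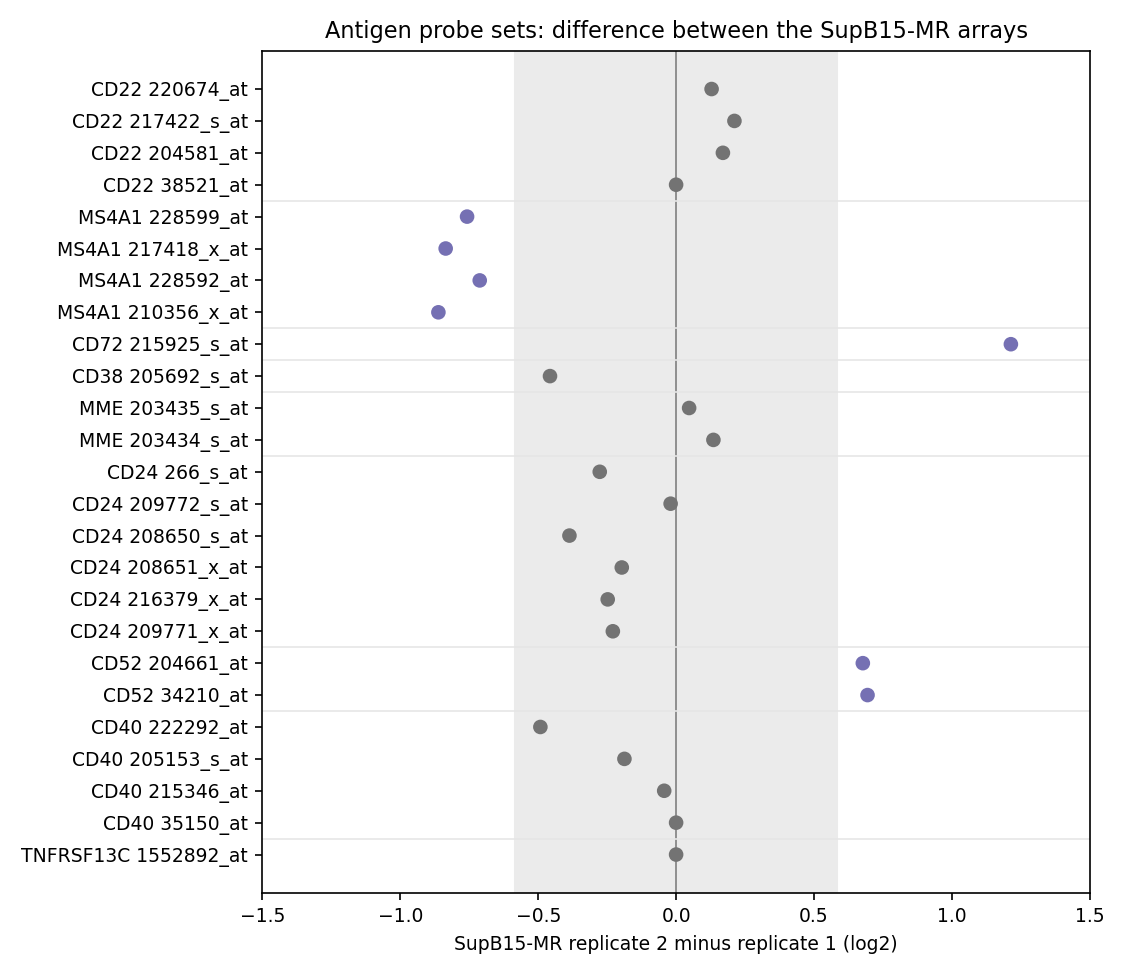
Replicate 2 minus replicate 1 of SupB15-MR (log2) for the 25 antigen probe sets, 1 row per probe set. The grey band marks less than 1.5-fold. The 7 purple points outside it are the 4 MS4A1 probe sets on the left and those of CD52 and CD72 on the right.

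Genes around the antigens, from lists of known partners, were read in the same way, each by its probe set of highest mean. Among 9 ligands and enzymes that make ligands, 2 rose and 1 fell (10.6% and 9.81% of all genes), and 6 were not called. PECAM1, the ligand of CD38, had 10.23 in SupB15, 6.38 in replicate 1 and 6.05 in replicate 2 and fell by 4.01 (adjusted p = 0.0385 from limma). All 5 PECAM1 probe sets were 2-fold or more lower in each array. CMAS, which activates the sialic acid that CD22 binds, rose by 1.40 (adjusted p = 0.0232 from limma), with a median of 0.80 over its probe sets. SIGLEC10, the receptor for CD24, rose by 1.14 with identical values of 5.66 in the SupB15-MR arrays. PECAM1 thus differed from SupB15 in the same direction as CD38, whose difference did not pass the test. SIGLEC10 differed in the opposite direction to CD24. SEMA4D, the partner of CD72, had 0.28 and the ligand maker ST6GAL1 -0.12. Neither was called, and the probe sets of each disagreed in direction. No relation between ligands and antigens was tested.

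Of 18 tested partners of ITIM and B-cell receptor signalling, 1 rose and 2 fell (10.6% and 9.81% of all genes), and 15 were not called, with a median log2 difference of -0.42 against 0 over all genes. CD81, the tetraspanin of the B-cell coreceptor, fell by 2.30 (adjusted p = 0.0382 from limma). The phosphatase gene PTPN6 fell by 1.74 (adjusted p = 0.0315 from limma) on its only probe set. PTPN11, the phosphatase SHP2, had -2.97 and the adaptor BLNK -2.08, and neither passed. PLCG2, a phospholipase below the B-cell receptor, had 2.38 and did not pass either. The probe sets of PTPN11 (-2.97 to 3.32) and of PLCG2 (-0.75 to 2.38) disagreed. By size alone, 5 were lower (15.1% of all genes) and 2 higher (14.5%) by 2-fold or more in each SupB15-MR array.

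Of 15 genes of CD40 and BAFF receptor signalling, 2 rose and 1 fell (10.6% and 9.81% of all genes), and 12 were not called. TRAF5, an adaptor that CD40 binds, rose by 2.80 (adjusted p = 0.00193 from limma) on 1 of its 2 probe sets, the other being at 0. NFKB1 fell by 1.38 (adjusted p = 0.0311 from limma). The kinase genes CHUK (-2.12) and IKBKB (-1.72) did not pass, and the probe sets of IKBKB ran from -1.72 to 0.01. Of 18 genes known to respond to CD40, 1 rose and 1 fell (10.6% and 9.81% of all genes), with a median of 0.08. CD83 rose by 2.01 (adjusted p = 0.0146 from limma) and SLAMF1 fell by 1.64, with identical SupB15-MR values. IRF4 (-2.09) and BCL2L1 (1.58) did not pass, and their probe sets disagreed (-2.09 to 0.05 and -1.28 to 2.29).

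Among 24 genes that build or attach the GPI anchor of CD24 and CD52, 2 rose and 5 fell (10.6% and 9.81% of all genes), and 17 were not called, with a median of -0.45. PIGP, a subunit of the enzyme of the first step, had 9.68 in SupB15, 7.09 in replicate 1 and 7.04 in replicate 2 and fell by 2.62 (adjusted p = 0.00899 from limma). GPAA1, a subunit of the transamidase that joins the anchor to the protein, fell by 2.30 (adjusted p = 0.0133 from limma). PIGG fell by 2.23 on its probe set of highest mean, but its probe sets disagreed, with a median of 0. PIGH, at 2.05, did not pass. Of 14 other GPI-anchored leukocyte proteins, 1 fell (9.81% of all genes) and 13 were not called, with a median of 0.02, and by size alone 5 were lower (15.1% of all genes) and 1 higher (14.5%). CD48, a ligand of the receptor 2B4, fell by 2.15 (adjusted p = 0.0108 from limma). THY1 (-3.22), ULBP2 (-2.49) and PLAUR (-2.40) did not pass the test.

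Of 18 transcription factors of B cells, 1 rose and 3 fell (10.6% and 9.81% of all genes), and 14 were not called, with a median of -0.28. FLI1 (-2.03, adjusted p = 0.00906 from limma) and TCF12 (-2.02, adjusted p = 0.0266 from limma) fell, although the 6 probe sets of FLI1 ran from -2.03 to 1.98. The ETS factor gene SPIB had 4.49 in SupB15, 8.04 in replicate 1 and 7.14 in replicate 2, a difference of 3.10 that did not pass (adjusted p = 0.135 from limma). The differences over the SPIB probe sets ran from 0.71 to 3.10. Of 26 relatives of the antigens in their gene families, 2 rose and 3 fell (10.6% and 9.81% of all genes), and 21 were not called, with a median of 0.02. TNFRSF1A rose by 1.58 and TNFRSF1B fell by 1.78, each with identical values in the SupB15-MR arrays. MS4A6A fell by 1.57 (adjusted p = 0.0449 from limma), with a median of -0.70 over its probe sets. TNFRSF17, the antigen BCMA, had -1.41 and did not pass.

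Of 24 other antibody and CAR targets of B-lineage leukemia and myeloma, 1 rose and 3 fell (10.6% and 9.81% of all genes), and 20 were not called, with a median of -0.04. CD200 had 5.83 in SupB15, 2.35 in replicate 1 and 2.64 in replicate 2 and fell by 3.34 (adjusted p = 0.0407 from limma). ROR1 fell by 3.28, from 6.81 to an identical 3.53 in both SupB15-MR arrays. SDC1, the 1 plasma cell marker of 5 that was higher (2.28), and CD276 (1.69) did not pass, and CD276 had a median of -0.21 over its probe sets. By size alone, 4 of these targets were higher (14.5% of all genes) and 4 lower (15.1%).

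**Figure D4:**
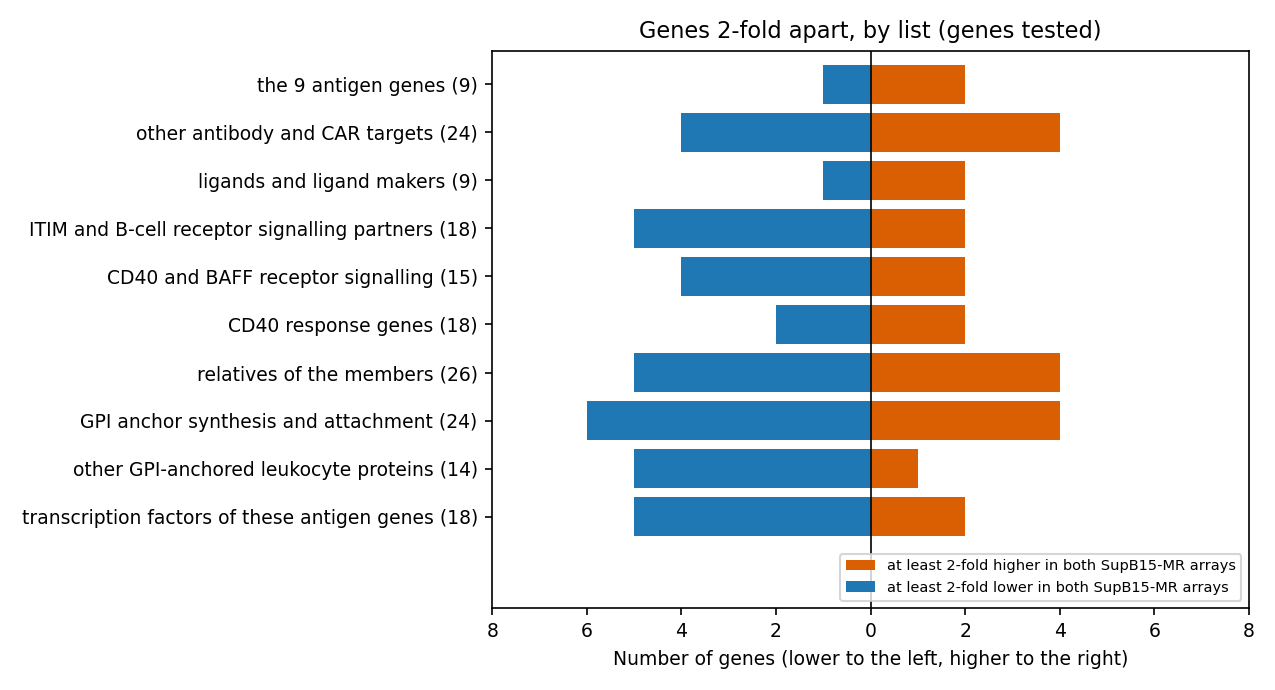
Number of genes that lay 2-fold or more below SupB15 (blue, to the left) or above it (orange, to the right) in each SupB15-MR array, for the 9 antigen genes and 9 lists of related genes, with the number of genes tested in parentheses. Every list has genes on both sides, and the anchor synthesis genes have 6 lower and 4 higher.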

How the data were processed

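Total RNA of 3 cultures was biotin-labelled (NuGEN Ovation) and measured on Affymetrix arrays with 54675 probe sets. The deposited values are log2 expression values that the authors normalized and summarized with RMA. No scanner files were used, and arrays have no depth, so that their number limits the precision. The label of the design names another version of this array than the methods. Genes were named from the platform annotation (41097 probe sets with 1 gene, 1801 with several, 11777 with none).

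A filter took out 8641 probe sets that did not exceed 3.47, percentile 20 of the whole table, in any array. The remaining 46034 were fitted with limma 3.58.1 in R 4.3.3 (1 residual degree of freedom, empirical Bayes, Benjamini-Hochberg), with calls at 0.05 after adjustment and 2-fold. Values were identical in both SupB15-MR arrays for 39.7% of these probe sets and in all 3 arrays for 10%; the cause was not tested. Their residual spread was 0, which sets a low expected spread. In simulated data of 46034 probe sets with such identical values, 32%, 72%, 90% and 92% of changes of 1, 2, 3 and 4 (log2) were recovered and 1 unchanged probe set was called. There all arrays had the same spread, taken from the SupB15-MR arrays, and no shift between arrays, and few probe sets were changed. The share of false calls among the real arrays, where SupB15 stood apart, was therefore not tested.

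Among the probe sets of a gene, that with the highest average of the SupB15 value and the SupB15-MR mean stood for it. Every antigen probe set is named, as are CD79A, CD79B and PTPRC, and of each list of related genes up to 4 with the largest difference among those 2-fold or more from SupB15 in each SupB15-MR array. VPREB1, IGLL1, RAG1, DNTT, EBF1, PAX5, the plasma cell markers, KLF1, COL1A2, MPO, CSF1R, LYZ, CD3E, PTPN6, SEMA4D, ST6GAL1 and THY1 as a stromal marker were added after their values were seen. The antigens and lists were chosen with earlier results of these data known. Alternatives were centring, 2 other filters, 2 other variance priors, an ANOVA, other choices of the probe set and leaving out either SupB15-MR array. The count of probe sets 1.5-fold apart and its alternatives were added after seeing the data. Some genes of the lists are not reported here. Promoter sequences are from RefSeq, and letters were searched with Python 3.11.15.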

Additional observations from a re-analysis of the deposited data

How the results depend on the processing

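The 6 antigen probe sets called by limma became 10 (4 higher, 6 lower) with centred arrays, 12 (5 higher, 7 lower) with the variance prior taken from probe sets that differ between the SupB15-MR arrays, and 0 with the ANOVA, which also called 0 of the 3 genes. Other filters left 5 probe sets and 2 genes, with 209771_x_at of CD24 lost and 209772_s_at still called. The 11 probe sets 2-fold or more from SupB15 in each SupB15-MR array became 13 to 13, and the 3 genes 3 to 4, when either SupB15-MR array was left out; the fourth gene, without replicate 1, was CD38. Of the 7 probe sets 1.5-fold apart between the SupB15-MR arrays, 1 was left at 2-fold. With the probe set of highest SupB15 value the direction turned for CD40 (-1.30) and MS4A1 (-0.56), and with centred arrays for MS4A1 (-0.10) and CD72 (-0.15). Leaving out replicate 1 or 2 gave -0.27 or 0.44 for MS4A1, 0.65 or -0.57 for CD72 and -0.04 or -0.74 for CD52. The other antigen genes kept their direction under the alternatives run. No paired analysis was possible because SupB15 has 1 array and no replicate number is shared by pairs. SupB15 has no replicate, so that the spread between its cultures is unknown.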
